A study of Mus musculus with 6 samples.

Results

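Chemokines are small secreted proteins that draw leukocytes into tissue, and the transcripts of 9 chemokine ligands and of the atypical chemokine receptor *Ackr3* were measured here by RNA-Seq in mouse podocytes kept in high glucose (HG). The 9 ligands were *Ccl2*, *Ccl7*, *Ccl5*, *Cxcl1*, *Cxcl5*, *Cxcl10*, *Cxcl12*, *Cxcl16* and *Cx3cl1*. Members were found by symbol among the 24469 loci of the deposited table, and each of the 10 had exactly 1 locus, which carried the name of no other gene. All 10 were among the 10562 loci with a mean of at least 1 FPKM (fragments per kilobase of transcript, scaled to the mapped fragments of the library) that were tested. Of the 10, 9 belonged to the KEGG chemokine signaling pathway as annotated in that table, and *Ackr3* did not.

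Chemokines are classed by the spacing of their first cysteines into CC, CXC and CX3C ligands, and they act through G protein-coupled receptors on the cells they attract. CC ligands such as CCL2 and CCL7 attract monocytes through CCR2, CXC ligands with a Glu-Leu-Arg motif attract neutrophils through CXCR2, and CXCL10 attracts activated T cells through CXCR3. CXCL12 signals through CXCR4, whereas ACKR3 binds the same ligand, recruits arrestin and removes it by uptake without the usual G protein signal. CXCL16 and CX3CL1 are made as membrane-anchored proteins whose chemokine domain is released by the proteases ADAM10 and ADAM17. In diseased glomeruli, chemokines made by resident cells are known as attractants of macrophages and T cells.

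The 6 libraries came from MPCs, a conditionally immortalized mouse podocyte line that was expanded with interferon gamma (50 U/mL) and differentiated without it for 10 days. All cells were starved in serum-free medium for 12 h and then kept in 25 mM glucose for 12 h. The study's methods name D-mannitol as an osmotic control for signaling and staining assays, and no library here is labelled as such a control. The groups were HG alone (n = 2), HG after 1 h with 100 ng/mL of wild-type recombinant FGF1 (rFGF1WT, n = 2) and HG after 1 h with 100 ng/mL of rFGF1ΔHBS (n = 2), the form of FGF1 with 3 substitutions in its heparan sulfate binding site. The HG cells had no pretreatment, so the pretreatment step itself and FGF1 cannot be told apart. Cells at normal glucose are not analysed here. The comparisons asked how chemokine transcripts under HG differed with either form of FGF1, and whether both forms differed from each other. The labels do not say whether replicates were separate cultures, so p-values measure the spread between these libraries, which may be technical.

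FPKM summed to 179594 to 185168 per library, and Pearson's r of log2(FPKM + 1) across the tested loci, which are not independent replicates, lay from 0.916 to 0.923 for replicates and from 0.895 to 0.924 for pairs of different groups. In 11930 loci with a single Ensembl transcript, FPKM multiplied by transcript length piled up at 1 value per library, between 0.0431 and 0.0448, with a smaller pile at 0.5 of it. If that value stands for 1 fragment, the libraries hold 22300000 to 23200000 mapped fragments and differ in depth by factors of 0.973 to 1.01 from the first HG library. Of the low values, 41.8% to 44.4% then lay within 0.05 of a whole fragment, against 10% if they were spread evenly. The step was picked as the densest value within a set range of these same loci, and the smaller pile lay outside that range. Some excess over 10% follows from that choice, so the share does not test the reading as 1 fragment. Of the markers that define podocytes, nephrin (*Nphs1*) had 0.618 to 0.942 FPKM, and *Wt1* at most 0.0731, while *Synpo* had 4.01 to 10.2 and *Podxl* 14.8 to 17.6. Both *Nphs1* and *Wt1* were thus below 1 FPKM in cells labelled as a podocyte line. Of the 16 podocyte markers, 15 were in the table and 7 were tested, and their summed FPKM was 193 to 198 in HG, 244 to 245 with rFGF1WT and 225 to 230 with rFGF1ΔHBS. *Kirrel*, which encodes a slit diaphragm protein, rose with rFGF1WT (log2 fold change 1.24, adjusted p = 0.0483), whereas *Synpo*, with 9.58 and 10.2 FPKM in HG, 5.45 and 4.01 with rFGF1WT and 4.84 and 6.83 with rFGF1ΔHBS, had log2 fold changes of -0.94 (adjusted p = 0.0787) and -0.69 (adjusted p = 0.131). Of the 7 tested markers, 4 had a log2 fold change above 0 and 3 below 0 in each comparison with HG. The sums were carried mostly by *Actn4* (83.2 to 106 FPKM) and *Cd2ap* (51.3 to 76.2 FPKM).

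The genes lie on 5 chromosomes of GRCm38, the build of the annotation used here, since the deposited table gives no coordinates. Chromosome 11 holds *Ccl2* (82035571 to 82037453, plus strand), *Ccl7* (82045712 to 82047525, plus strand), *Ccl5* (83525778 to 83530518, minus strand) and *Cxcl16* (70453983 to 70459984, minus strand). *Ccl2* and *Ccl7* are neighbours, 8258 bases apart. Chromosome 5 holds *Cxcl5* (90759360 to 90761624, plus strand), *Cxcl1* (90891241 to 90893115, plus strand) and *Cxcl10* (92346638 to 92348889, minus strand). *Cxcl12* lies on chromosome 6 (117168535 to 117181367, plus strand), *Cx3cl1* on chromosome 8 (94772009 to 94782427, plus strand) and *Ackr3* on chromosome 1 (90203980 to 90216751, plus strand).

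RefSeq promoter windows (GRCm38.p6) were at hand for 5 of the 10 genes, namely *Cxcl1*, *Cxcl10*, *Cxcl12*, *Cx3cl1* and *Ackr3*. The 250 bases before the transcription start are printed for 4 of them, *Cxcl10* and *Cxcl12* because both transcripts fell with rFGF1ΔHBS, *Ackr3* because it encodes a receptor of CXCL12, and *Cxcl1* as an abundant neutrophil attractant whose replicates differed widely. Capitals mark matches, on either strand, to the NF-κB consensus decamer, the interferon-stimulated response element core GAAANNGAA, the AP-1 site TGANTCA, the TATA box TATAAA, the GC box GGGCGG or the ETS core CCGGAA. The windows are written 5′ to 3′ on the gene's own strand and lie at chr5:92348890-92349139 (*Cxcl10*, minus strand), chr6:117168285-117168534 (*Cxcl12*, plus strand), chr1:90203730-90203979 (*Ackr3*, plus strand) and chr5:90890995-90891244 (*Cxcl1*, plus strand).
Cxcl10: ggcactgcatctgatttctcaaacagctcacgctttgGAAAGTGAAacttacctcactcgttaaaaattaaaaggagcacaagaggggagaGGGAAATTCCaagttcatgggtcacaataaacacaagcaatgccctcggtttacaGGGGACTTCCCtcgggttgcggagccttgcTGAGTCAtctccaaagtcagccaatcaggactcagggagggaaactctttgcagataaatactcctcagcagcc
Cxcl12: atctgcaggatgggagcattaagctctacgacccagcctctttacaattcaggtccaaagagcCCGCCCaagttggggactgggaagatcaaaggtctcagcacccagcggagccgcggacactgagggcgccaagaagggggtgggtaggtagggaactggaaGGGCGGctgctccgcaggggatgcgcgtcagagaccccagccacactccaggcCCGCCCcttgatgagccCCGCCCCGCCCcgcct
Ackr3: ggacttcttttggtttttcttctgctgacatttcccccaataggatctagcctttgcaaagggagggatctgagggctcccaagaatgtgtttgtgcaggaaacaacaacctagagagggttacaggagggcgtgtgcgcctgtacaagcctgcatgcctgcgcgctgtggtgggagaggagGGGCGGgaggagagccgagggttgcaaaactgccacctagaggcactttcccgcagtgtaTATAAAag
Cxcl1: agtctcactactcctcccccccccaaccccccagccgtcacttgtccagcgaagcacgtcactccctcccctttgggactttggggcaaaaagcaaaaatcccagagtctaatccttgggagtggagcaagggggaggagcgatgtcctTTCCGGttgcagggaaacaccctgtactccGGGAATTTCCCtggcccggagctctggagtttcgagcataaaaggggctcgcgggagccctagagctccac

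The window of *Cxcl10* held 3 matches to the NF-κB decamer, 2 of them overlapping, as well as 1 match to the interferon element and 1 to AP-1. The window of *Cxcl1* held 2 overlapping matches to the NF-κB decamer, which read the same 11 bases from both strands, and 1 ETS core. *Cxcl12* had 5 GC boxes, the last 2 sharing 1 base, and no match to the other motifs. *Ackr3* had 1 GC box and 1 match to TATAAA, as did *Cx3cl1*. The last base of the TATAAA match lay at -3 (*Ackr3*) and -1 (*Cx3cl1*) from the RefSeq start, directly beside it. The *Cx3cl1* window ends at base 94772179, inside the locus given above, so its RefSeq start differs from that of the annotation used for positions. Of all 32851 RefSeq windows of 250 bases, 7.25% held the NF-κB decamer, 7.13% the interferon core, 6.75% AP-1, 12.4% the TATA box, 32.7% the GC box and 12.0% the ETS core. A match describes the letters only, and binding was not measured.

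Within HG, *Cxcl1*, *Cxcl10* and *Ccl2* were the most abundant of the 10 transcripts, at 28.6 ± 13.6, 27.8 ± 1.40 and 25.8 ± 1.16 FPKM (SD, n = 2). The libraries of *Cxcl1* spanned those of both *Cxcl10* and *Ccl2*, so the order of *Cxcl1* is not set beyond its spread. *Cxcl12* followed with 15.2 ± 1.61, then *Cx3cl1* with 7.06 ± 8.25, *Ccl7* with 6.70 ± 1.56, *Ackr3* with 5.12 ± 0.257 and *Cxcl5* with 3.93 ± 0.208. *Ccl5* (1.12 ± 0.328) and *Cxcl16* (0.716 ± 0.156) came last. With rFGF1WT, *Ccl2* and *Cxcl1* led with overlapping libraries, *Ccl7* had passed *Cxcl12*, and *Ccl5* and *Cxcl16* were still the lowest. With rFGF1ΔHBS *Ccl2* and *Cxcl1* again led with overlapping libraries, and *Cx3cl1*, *Ccl5* and *Cxcl16* came last, with *Cx3cl1* overlapping *Ccl5*. Since FPKM are divided by transcript length, these levels can be set side by side, but a locus with several transcripts has no single length.

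**Figure D1:**
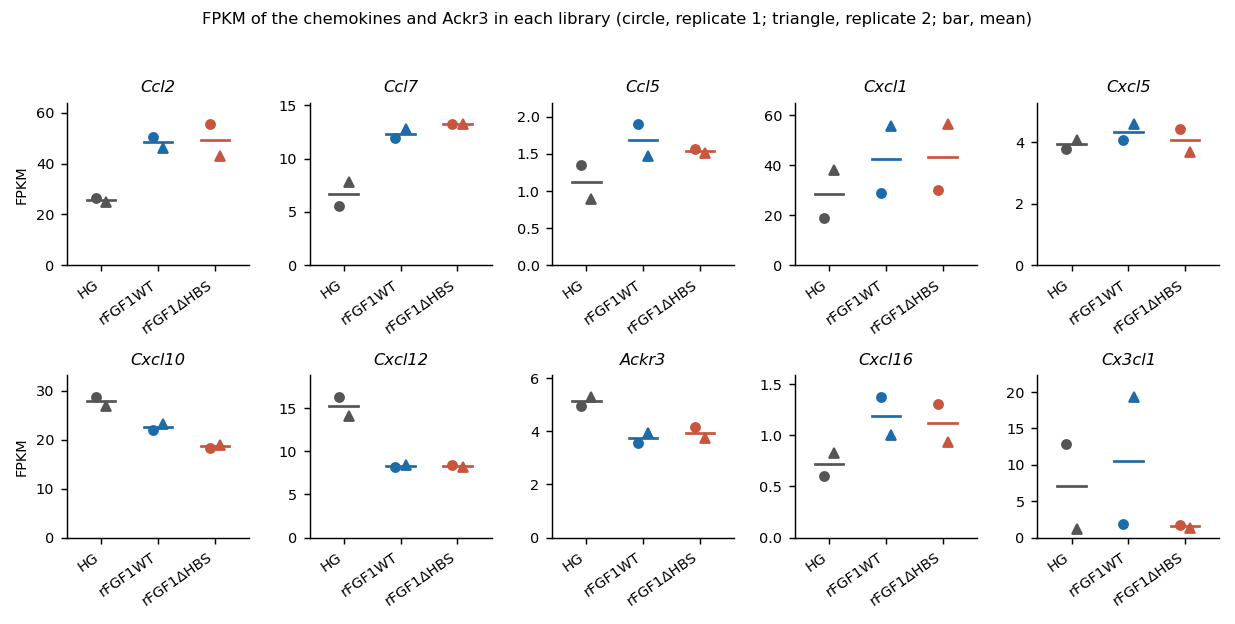
FPKM of each of the 10 genes (vertical axis from 0, its own scale per gene) in the 6 libraries, by group, with replicate 1 as circles, replicate 2 as triangles and the group mean as a bar. *Ccl2* and *Ccl7* are higher and *Cxcl10*, *Cxcl12* and *Ackr3* lower in all 4 FGF1 libraries than in both HG libraries, while the replicates of *Cxcl1* and *Cx3cl1* lie far apart.

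With rFGF1WT, *Ccl2* rose and *Cxcl12* fell, and with rFGF1ΔHBS *Ccl2* and *Ccl7* rose while *Cxcl10* and *Cxcl12* fell. A gene is said to rise or fall here where the Benjamini-Hochberg adjusted p from limma, fitted to log2(FPKM + 1) of all 10562 tested loci, was under 0.05. With rFGF1WT this held for 2 of the 10 genes, against 6.19% of all tested loci, and with rFGF1ΔHBS for 4 of 10, against 6.26%. None of the 10 also reached the 2-fold limit of the study's methods, with either rFGF1WT (1.01% of all loci) or rFGF1ΔHBS (0.899%). At an unadjusted p under 0.05 there were 5 of 10 in each comparison, against 24.8% of all loci with rFGF1WT and 24.9% with rFGF1ΔHBS. The FGF1 libraries did not overlap with the HG libraries for 7 of 10 genes with rFGF1WT (58.2% of all loci) and 7 of 10 with rFGF1ΔHBS (57.3%), close to the shares of all loci. The median log2 fold change of the 10 genes was 0.35 with rFGF1WT and 0.15 with rFGF1ΔHBS, beside -0.04 over all tested loci in both comparisons. Both comparisons share the HG libraries, so their likeness is not independent evidence. In bulk RNA, fewer cells that make a transcript and less of it per cell cannot be told apart.

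*Ccl2* encodes CCL2 (MCP-1), the main attractant of monocytes. It had 26.6 and 25.0 FPKM in the HG libraries, 50.6 and 46.3 with rFGF1WT, and 55.4 and 42.8 with rFGF1ΔHBS. Every FGF1 library lay above both HG libraries. The log2 fold change was 0.88 (standard error 0.140, adjusted p = 0.0451) with rFGF1WT and 0.89 (standard error 0.140, adjusted p = 0.0432) with rFGF1ΔHBS, and the ratios of mean FPKM were 1.88 and 1.91. These changes were above those of 97.5% of the tested loci in each comparison. The call with rFGF1WT was lost without either HG library (adjusted p = 0.147 and 0.161) and without either rFGF1WT library (0.163 and 0.131), and that with rFGF1ΔHBS was lost in each of the 6 fits that left out 1 library (0.0518 to 0.156). Without the filter on low FPKM the adjusted p were 0.0877 and 0.0809, and with only the 4 libraries compared they were 0.0490 and 0.0935.

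*Ccl7* encodes CCL7 (MCP-3), a close relative of CCL2 that shares its receptor. It had 5.59 and 7.80 FPKM in HG, 11.9 and 12.7 with rFGF1WT and 13.2 in both libraries with rFGF1ΔHBS. All 4 FGF1 libraries were again above both HG libraries. The log2 fold change was 0.81 (adjusted p = 0.0636) with rFGF1WT, which did not pass, and 0.90 (adjusted p = 0.0499) with rFGF1ΔHBS, which passed narrowly. *Ccl7* has a single transcript of 801 bases in 3 exons, so its FPKM can be read as fragments if the step described above is 1 fragment. That gives 103 and 140 fragments in HG (exact Poisson 95% intervals 84.1 to 125 and 118 to 165), 213 and 231 with rFGF1WT and 246 and 239 with rFGF1ΔHBS, and the interval of each FGF1 library (lowest bound 185) lay above both HG intervals. Such intervals cover counting error only. The call with rFGF1ΔHBS held without the second HG library (log2 fold change 1.11, adjusted p = 0.0378) and was lost without any of the other 5 libraries (0.0743 to 0.166), while without the second HG library rFGF1WT passed as well (1.01, adjusted p = 0.0404).

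*Ccl5* encodes RANTES, an attractant of T cells and monocytes. Its FPKM was low, at 1.36 and 0.892 in HG, 1.90 and 1.47 with rFGF1WT and 1.56 and 1.52 with rFGF1ΔHBS. The FGF1 libraries were above the HG libraries, but its log2 fold changes did not pass, at 0.34 with rFGF1WT (adjusted p = 0.268) and 0.27 with rFGF1ΔHBS (adjusted p = 0.370). The 95% intervals of the fit ran from -0.07 to 0.76 and from -0.15 to 0.68.

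*Cxcl1* and *Cxcl5* encode neutrophil attractants that act through CXCR2. *Cxcl1* had 19.0 and 38.2 FPKM in HG, 29.2 and 55.9 with rFGF1WT and 30.2 and 56.5 with rFGF1ΔHBS. Within each group, replicate 2 had 1.87 to 2.01 times the FPKM of replicate 1, and the groups overlapped. The log2 fold changes of 0.57 (95% interval -0.89 to 2.02, adjusted p = 0.568) and 0.60 (95% interval -0.86 to 2.06, adjusted p = 0.550) therefore had wide errors, and leaving out 1 library gave values of 0.08 to 1.05 and of 0.11 to 1.08. In a limma fit with a block for the replicate number, the adjusted p of *Cxcl1* were 0.0698 and 0.0713, which did not pass. *Cxcl5* had 3.78 and 4.08 FPKM in HG, 4.06 and 4.58 with rFGF1WT and 4.44 and 3.68 with rFGF1ΔHBS. Its log2 fold changes were 0.11 (95% interval -0.18 to 0.40) and 0.03 (95% interval -0.26 to 0.33), so that a 2-fold change of *Cxcl5* + 1 lay outside both intervals.

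*Cxcl10* encodes IP-10, a ligand induced by interferons that attracts T cells. It had 28.8 and 26.9 FPKM in HG, 21.9 and 23.1 with rFGF1WT and 18.4 and 19.0 with rFGF1ΔHBS. No library of one group overlapped with those of another. It fell with rFGF1ΔHBS by 0.55 on the log2 scale (standard error 0.0624, adjusted p = 0.0231), to 0.671 of the HG mean, whereas the log2 fold change with rFGF1WT was -0.29 (standard error 0.0624, adjusted p = 0.0796) and did not pass. Each of the 6 fits that left out 1 library gave rFGF1ΔHBS an adjusted p above the threshold, from 0.0588 without the first rFGF1WT library to 0.0965 without the first rFGF1ΔHBS library, at log2 fold changes of -0.60 to -0.50.

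*Cxcl12* encodes SDF-1, the ligand of CXCR4 and ACKR3. It had 16.3 and 14.0 FPKM in HG, 8.19 and 8.46 with rFGF1WT and 8.42 and 8.18 with rFGF1ΔHBS. All 4 FGF1 libraries lay between 8.18 and 8.46, below both HG libraries. *Cxcl12* fell to 0.548 and 0.547 of the HG mean, by 0.79 (standard error 0.0866, adjusted p = 0.0217) and 0.80 (standard error 0.0866, adjusted p = 0.0216) on the log2 scale. These were the lowest adjusted p among the 10 genes. The calls held without the second HG library (adjusted p = 0.0447 and 0.0462) and were lost without any of the other 5, with adjusted p of 0.0641 to 0.101 for rFGF1WT and 0.0616 to 0.0945 for rFGF1ΔHBS, and in fits of only the 4 libraries compared (0.0645 and 0.0615).

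*Ackr3*, the receptor that takes up CXCL12, had 4.94 and 5.30 FPKM in HG, 3.57 and 3.96 with rFGF1WT and 4.16 and 3.74 with rFGF1ΔHBS. The FGF1 libraries were below the HG libraries, as for its ligand, at 0.734 and 0.771 of the HG mean. After adjustment neither change passed, with log2 fold changes of -0.36 for rFGF1WT (95% interval -0.59 to -0.13, adjusted p = 0.0964) and -0.31 for rFGF1ΔHBS (95% interval -0.54 to -0.08, adjusted p = 0.125). The intervals are those of the single gene and carry no correction for the number of loci.

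*Cxcl16* and *Cx3cl1* encode the membrane-anchored ligands. *Cxcl16* had 0.606 and 0.827 FPKM in HG, 1.38 and 1.00 with rFGF1WT and 1.30 and 0.938 with rFGF1ΔHBS. Its FGF1 libraries were above its HG libraries, with log2 fold changes of 0.35 (adjusted p = 0.274) for rFGF1WT and 0.30 (adjusted p = 0.334) for rFGF1ΔHBS, neither of which passed. *Cx3cl1*, which encodes fractalkine, had 12.9 and 1.22 FPKM in HG, 1.82 and 19.4 with rFGF1WT and 1.81 and 1.33 with rFGF1ΔHBS. Replicates thus differed 10.5-fold within HG and 10.7-fold within rFGF1WT, and the log2 fold changes of 0.45 (95% interval -3.10 to 4.00, adjusted p = 0.868) and -1.12 (95% interval -4.67 to 2.43, adjusted p = 0.645) give no direction. *Cx3cl1* is listed with 6 transcripts of 377 to 3315 bases, 3 of them protein coding.

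**Figure D2:**
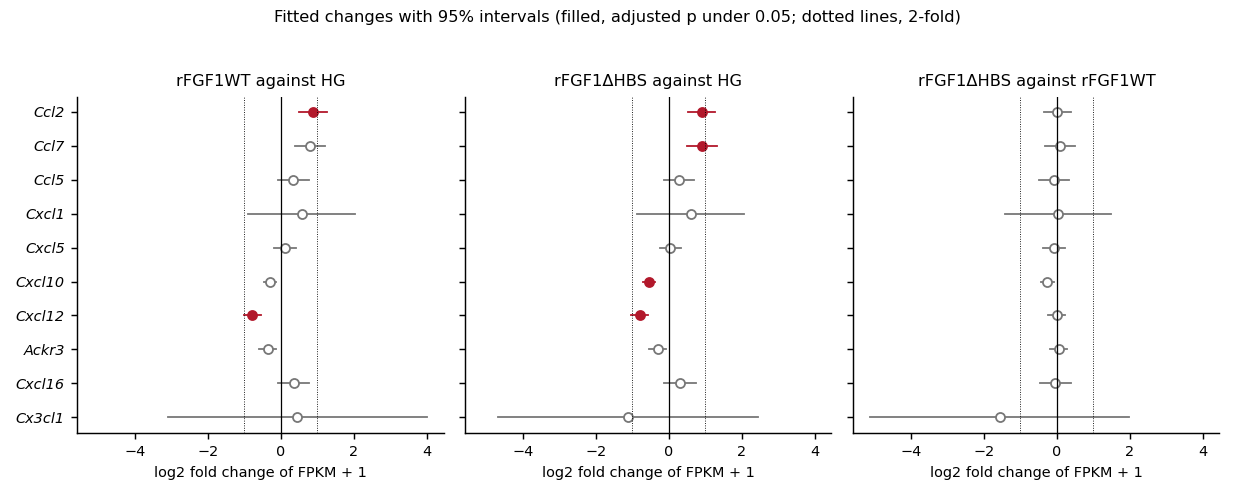
Log2 fold changes of FPKM + 1 from limma (horizontal axis) for the 10 genes, with 95% intervals as lines, in the 3 comparisons. Filled points have an adjusted p under 0.05 (2, 4 and 0 genes), dotted lines mark 2-fold, and *Cxcl1* and *Cx3cl1* have the widest intervals.

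Between rFGF1ΔHBS and rFGF1WT, which differ by the 3 substitutions and were given at the same dose and time, none of the 10 genes passed in limma, against 0.549% of all tested loci, and none passed with the 2-fold limit, against 0.350%. At an unadjusted p under 0.05 there was 1 gene of 10 (4.87% of all loci), *Cxcl10*, whose log2 fold change was -0.26 (95% interval -0.43 to -0.09, limma adjusted p = 0.652). The libraries of both groups did not overlap for 3 of 10 genes (34.5% of all loci), namely *Cxcl10*, *Ccl7* and *Cx3cl1*. For *Cx3cl1* the lower rFGF1WT library had 1.817 FPKM and the higher rFGF1ΔHBS library 1.808, so they barely differed, while the other rFGF1WT library had 19.4. The median log2 fold change of the 10 genes was -0.03, beside 0.01 over all tested loci. For *Cxcl12* the difference was 0.00 (95% interval -0.24 to 0.23), for *Ackr3* 0.06 (-0.18 to 0.29), for *Ccl2* 0.01 (-0.37 to 0.39) and for *Ccl7* 0.09 (-0.31 to 0.50). For *Cxcl5*, *Cxcl16* and *Ccl5* the intervals were -0.37 to 0.22, -0.47 to 0.38 and -0.49 to 0.34, so a 2-fold difference in FPKM + 1 lay outside the intervals of these 7 genes and of *Cxcl10*. For genes with low FPKM, such as *Cxcl16* and *Ccl5*, 2-fold in FPKM + 1 is more than 2-fold in FPKM. Their intervals therefore say less about FPKM itself. For *Cxcl1* (-1.43 to 1.49) and *Cx3cl1* (-5.12 to 1.98) a 2-fold difference in either direction lay inside.

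Of the other 19 CC and XC ligands on the list, 10 were in the table and 2 had enough FPKM to be tested. *Ccl20*, which encodes the ligand of CCR6, had 3.83 and 4.36 FPKM in HG, 8.84 and 8.64 with rFGF1WT and 11.1 and 9.65 with rFGF1ΔHBS. It rose by a log2 fold change of 0.94 (adjusted p = 0.0198) and 1.16 (adjusted p = 0.0156), and with rFGF1ΔHBS it also passed the 2-fold limit. *Ccl17*, a ligand of CCR4, had 1.14 and 0.735 FPKM in HG, 3.10 and 2.63 with rFGF1WT and 1.81 and 3.56 with rFGF1ΔHBS, with log2 fold changes of 1.00 (adjusted p = 0.122) and 0.89 (adjusted p = 0.146). Of 10 other CXC ligands, 9 were in the table and 1 was tested. That was *Ppbp*, a neutrophil attractant usually known from platelets, with 29.3 and 29.4 FPKM in HG, 25.7 and 67.7 with rFGF1WT and 20.9 and 64.1 with rFGF1ΔHBS (adjusted p = 0.708 and 0.826). The FPKM of *Ppbp* thus overlapped with those of *Ccl2* and *Cxcl1*, with FGF1 libraries that differed more than 2-fold within a group.

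Chemokine receptors other than *Ackr3* were near 0. Of 22 on the list, 12 were in the table and none reached a mean of 1 FPKM. Their summed FPKM was 0.445 to 0.786 in HG, 0.386 to 0.442 with rFGF1WT and 0.337 to 0.338 with rFGF1ΔHBS, and the highest single value was 0.573 FPKM of *Ccrl2* in 1 HG library. *Cx3cr1*, the receptor of fractalkine, had at most 0.0545 FPKM and *Cxcr6*, the receptor of CXCL16, at most 0.0464. *Ackr3* with its 3.57 to 5.30 FPKM was thus the only receptor on the list or among the 10 genes to pass the filter.

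**Figure D3:**
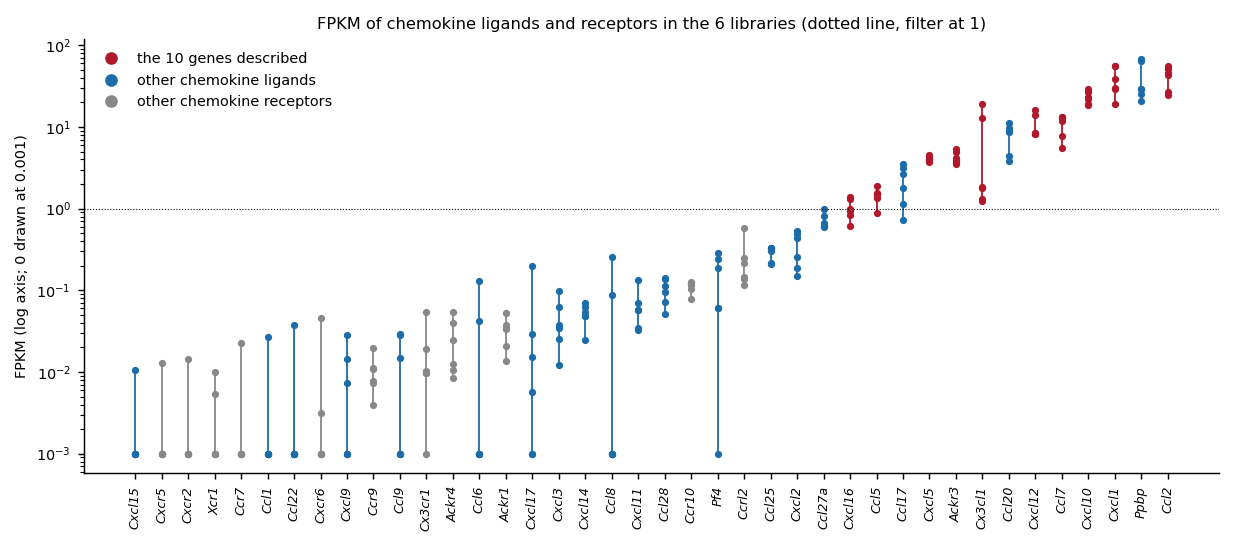
FPKM (vertical log axis, with 0 drawn at 0.001) of chemokine ligands and of receptors found in the table, each with its 6 libraries as points joined by a line and ordered by mean. The 10 genes described, *Ccl20*, *Ccl17* and *Ppbp* have a mean above the dotted line at 1 FPKM, and every receptor shown but *Ackr3* lies below it.

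Of 5 genes for shedding, trimming and arrestin, which release or take up chemokines, 4 were tested and none passed in any comparison. *Adam10*, the main sheddase of both membrane-anchored ligands, had 43.5 and 44.9 FPKM in HG, 39.4 and 38.0 with rFGF1WT and 41.4 and 38.1 with rFGF1ΔHBS (adjusted p = 0.164 and 0.232). The median log2 fold change of these 4 genes was -0.12 and -0.14. At an unadjusted p under 0.05 there were 2 of them with rFGF1WT (24.8% of all loci) and 0 with rFGF1ΔHBS (24.9%) or between both forms (4.87%).

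NF-κB is the transcription factor best known for driving *Ccl2*, *Cxcl1* and *Cxcl10*. Of 26 genes of NF-κB subunits, upstream receptors and feedback inhibitors, 22 were tested, and in each comparison with HG 1 rose and 1 fell, with a median log2 fold change of -0.07 with rFGF1WT and -0.05 with rFGF1ΔHBS. *Tnfrsf1b*, a receptor of TNF, rose from 5.19 and 4.74 FPKM to 7.72 and 7.76 with rFGF1WT (0.55, adjusted p = 0.0250) and 7.96 and 8.29 with rFGF1ΔHBS (0.61, adjusted p = 0.0213). *Vcam1*, the adhesion molecule, fell from 6.04 and 6.20 FPKM to 4.52 and 4.32 (by 0.39, adjusted p = 0.0414) and 4.40 and 4.35 (by 0.41, adjusted p = 0.0376). Of all tested loci, 6.19% were called with rFGF1WT (344 higher, 310 lower) and 6.26% with rFGF1ΔHBS (356 higher, 305 lower). Both directions were thus found over all loci as well.

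Of 21 interferon signalling genes, 20 were tested, with 1 falling and none rising with rFGF1WT, and 2 falling and none rising with rFGF1ΔHBS. The locus that merges *Ifit2*, *Ifit3* and *Ifit3b*, which are induced by interferons like *Cxcl10*, had 27.4 and 24.0 FPKM in HG, 10.5 and 11.8 with rFGF1WT and 8.94 and 9.66 with rFGF1ΔHBS. It fell by 1.14 on the log2 scale with rFGF1WT (adjusted p = 0.0159) and by 1.37 with rFGF1ΔHBS (adjusted p = 0.0140) and passed the 2-fold limit in both comparisons. The median over the 20 genes was -0.04 and 0.04, near that of all loci, so the list as a whole did not share the direction of the *Ifit* locus.

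Of 8 genes of RNA-binding proteins that set the decay of cytokine transcripts, all were tested and 1 fell with rFGF1ΔHBS. This was *Elavl1*, which encodes the stabilizing protein HuR, with 7.64 and 7.93 FPKM in HG, 7.97 and 9.10 with rFGF1WT and 4.55 and 5.22 with rFGF1ΔHBS (by 0.58, adjusted p = 0.0493). None passed with rFGF1WT. Some proteins of this list, though not all, bind AU-rich elements with the core ATTTA in 3′ UTRs. Among 10077 genes of tested loci, counted on the longest basic coding transcript of each gene, 70.4% had at least 1 ATTTA in the 3′ UTR, with a median of 1.34 per kb. The 3′ UTR of *Cxcl1* held 7 in 592 bases, or 11.8 per kb, more than 99.4% of these genes. *Ccl7* had 2 in 435 bases, *Cxcl5* 5 in 1111, *Ccl2* 1 in 275 and *Cxcl10* 3 in 996, all above the median per kb, whereas *Cxcl12* had 4 in 5188, *Cx3cl1* 1 in 1871 and *Ccl5* none in 199. *Ackr3* (3 in 1842) and *Cxcl16* (2 in 1421) lay near the median. Decay was not measured.

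Genes that follow ERK signalling, the main route downstream of FGF receptors, were set beside the chemokines as a measure of how far transcripts moved with each protein. Of 13, 12 were tested, and 7 rose with rFGF1WT and 6 with rFGF1ΔHBS, with none falling, at medians of 1.29 and 1.35. *Ccnd1* (cyclin D1) rose from 5.53 and 5.05 FPKM to 40.2 and 39.5 (2.70, adjusted p = 0.00145) and 39.1 and 42.5 (2.73, adjusted p = 0.00161). *Etv5*, an ETS factor, rose by 2.56 (adjusted p = 0.00158) and 2.61 (adjusted p = 0.00199), and *Etv4* by 2.83 (adjusted p = 0.0102) and 2.74 (adjusted p = 0.0115). *Spry4*, a feedback inhibitor, rose by 1.29 (adjusted p = 0.0130) and 1.32 (adjusted p = 0.0140). None of the 12 passed between both forms of FGF1. Among the 10 genes described, the changes that passed were at most 0.90 in size, below those of these 4 genes. They were not below all that rose on the list, since *Spry2* rose by 0.83 with rFGF1WT (adjusted p = 0.0492). The chemokine *Ccl20*, outside the 10, rose by 0.94 with rFGF1WT and 1.16 with rFGF1ΔHBS.

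In the KEGG chemokine signaling pathway, 94 of 156 annotated loci were tested, 9 of them the ligands described here. With rFGF1WT 2 rose and 2 fell, and with rFGF1ΔHBS 3 rose and 4 fell, beside 6.19% and 6.26% of all tested loci called. These counts include *Ccl2* and *Cxcl12* with rFGF1WT, and *Ccl2*, *Ccl7*, *Cxcl10* and *Cxcl12* with rFGF1ΔHBS. Between both forms none passed (0.549% of all loci), and 3 of 94 had an unadjusted p under 0.05 (4.87% of all loci). The median log2 fold change was -0.05, -0.04 and 0.01.

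Markers of other cell types were read beside these results. Of 12 leukocyte markers, 9 were in the table and 3 were tested, with summed FPKM of 69.8 to 73.4 in HG, 73.4 to 76.4 with rFGF1WT and 75.5 to 82.5 with rFGF1ΔHBS. Most of this sum was the locus of *Cd68*, which is merged with the housekeeping gene *Eif4a1* and rose (0.32, adjusted p = 0.0496 and 0.37, adjusted p = 0.0363). The pan-leukocyte marker *Ptprc* had at most 0.0548 FPKM, and the macrophage marker *Adgre1* at most 0.0136 with 4 of 6 libraries at 0. *Csf1r*, the receptor of CSF-1, fell from 9.56 and 10.7 FPKM to 3.21 and 3.68 (by 1.32, adjusted p = 0.0114) and 3.93 and 3.76 (by 1.19, adjusted p = 0.0140). Of 8 endothelial markers 1 was tested (summed FPKM 3.33 to 3.60, 1.20 to 3.03 and 2.97 to 3.06 in the 3 groups), almost all of it *Ehd3*, with *Pecam1* at most 0.0789. Of 9 mesangial and smooth muscle markers 4 were tested (summed FPKM 59.7 to 61.8, 72.9 to 75.9 and 66.2 to 74.3), with *Pdgfrb* at 26.1 to 32.7 and *Tagln* at 11.6 to 30.6. Of 8 tubular markers 6 were in the table and 2 were tested (summed FPKM 114 to 124, 93.4 to 94.5 and 91.4 to 96.6), namely *Cdh16* at 68.4 to 96.2 and *Lrp2* at 22.2 to 28.5. None of the mesangial, endothelial or tubular markers passed. All 4 mesangial and both tubular ones nevertheless had an unadjusted p under 0.05 in both comparisons with HG (0 of 1 endothelial). So did 24.8% and 24.9% of all loci. The libraries came from a single cell line, so these values describe transcripts of that line, and their relation to the chemokine results was not tested.

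The loci whose levels were most like those of 3 of the genes were named by the highest Pearson's r of log2(FPKM + 1) over the 6 libraries, as a description with no test, since the libraries share 3 groups and so many loci were searched. For *Ccl2*, among 3093 loci, these were *Idi1* (r = 0.993), an enzyme of cholesterol synthesis, *Plat* (r = 0.991), the tissue plasminogen activator, and *Acer3* (r = 0.989), a ceramidase. *Plat* had 14.0 FPKM in both HG libraries and 27.1 to 32.4 in the FGF1 libraries. For *Cxcl12*, among 3720 loci, they were *Adh7*, *Enpp1* and *Pde3b*, with r of 0.996, 0.995 and 0.995. *Adh7*, an alcohol dehydrogenase, had 83.9 to 91.2 FPKM in HG and 47.8 to 52.2 with FGF1. For *Ackr3*, among 7964 loci, they were *Lin37*, *Trp53bp2* and *Zfp946*, with r of 0.995, 0.995 and 0.994.

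**Figure D4:**
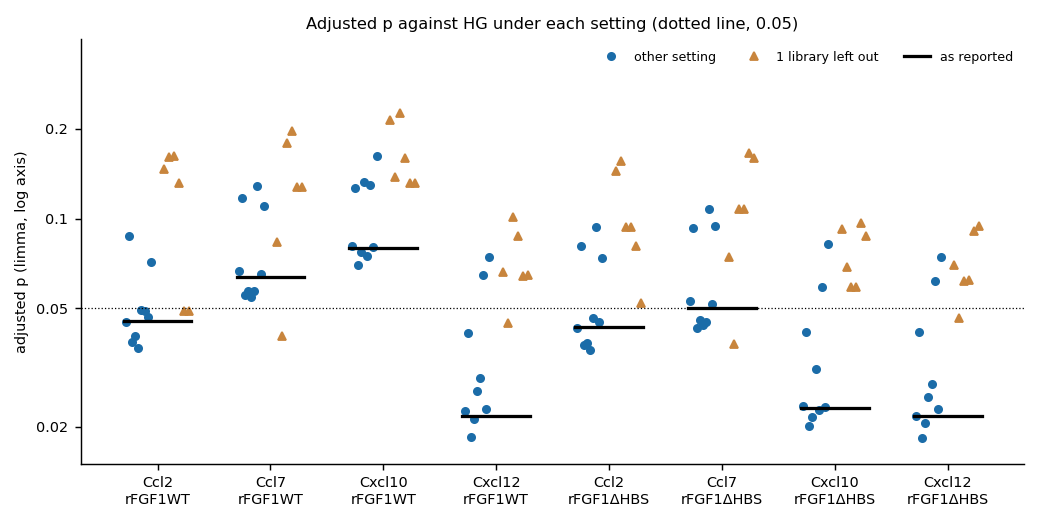
Adjusted p of limma (vertical log axis) for *Ccl2*, *Ccl7*, *Cxcl10* and *Cxcl12* against HG, as reported (bars), under 9 other settings (circles) and with 1 library left out (triangles). As reported, 6 of the 8 values lie between 0.0216 and 0.0499 and those of *Ccl7* and *Cxcl10* with rFGF1WT at 0.0636 and 0.0796, and for each gene most triangles lie above the dotted line at 0.05.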

How the data were processed

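RNA-Seq of poly(A) RNA from 6 libraries of MPCs (3 groups of 2, assigned by their labels) was analysed. The authors deposited 1 table of FPKM, which their methods say was summarized with edgeR. The submitters' processing notes name HISAT2 2.0, StringTie 1.3.0, Bowtie 0.12.2 and the build mm8 without saying what each was used for, and the annotation and the use of strand are not given in the sources used here. Fragments shared between paralogs, overlapping genes or merged loci may therefore be divided in ways that the FPKM do not show.

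From the FPKM, log2(FPKM + 1) of the 10562 loci with a mean of at least 1 was fitted in R 4.3.3 with limma 3.58.1 (lmFit, contrasts and eBayes with a trend; 3 residual degrees of freedom) and adjusted by the Benjamini-Hochberg method over all tested loci. The limits were an adjusted p of 0.05 and 2-fold. For 2 libraries against 2, the smallest p of an exact permutation test is 0.333, so none was run. The log2(FPKM + 1) scale understates the changes of genes with low FPKM. At least 1 library was listed at 0 for 290 tested loci, none of them the 10 genes. The script was tested on simulated data.

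Positions and transcripts came from GENCODE M21 (GRCm38), in which 99.6% of the table's Ensembl transcripts were found. Promoter windows came from RefSeq (GRCm38.p6), and 5 of the 10 genes matched. Python 3.11.15, numpy 2.4.6, pandas 2.3.3, scipy 1.17.1 and matplotlib 3.10.9 were used.

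The results of a few list genes are not reported here, although counts and sums over the lists include them. The 10 genes and the 13 gene lists were chosen with earlier results of these data known. From each list, the text gives how many genes were tested, rose and fell, the median, and up to 4 names with an adjusted p under 0.05, or else the most abundant. *Ccl17*, *Ccrl2*, *Cx3cr1*, *Cxcr6* and the markers at or near 0 were named after their values were seen. The alternatives were a pseudocount of 0.1, no filter or a filter at 5 FPKM, only loci without a 0, quantile normalization or median-ratio scaling of the columns, robust empirical Bayes, fits of the 4 libraries of a comparison alone, no 2-fold limit, a block for the replicate number, and leaving out each library in turn.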

Additional observations from a re-analysis of the deposited data

How the results depend on the processing

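Beside 0 of the 10 genes past both limits in each comparison, there were 2 (rFGF1WT) and 4 (rFGF1ΔHBS) with no 2-fold limit, and leaving out 1 library gave 0 to 1 in each, the 1 being *Ccl7* without the second HG library. Over all loci, 107 passed both limits with rFGF1WT, 95 with rFGF1ΔHBS and 37 between both forms. With no 2-fold limit these counts were 654, 661 and 58. With both limits and a replicate block they were 39, 36 and 6. By adjusted p alone, the rule used to call single genes, the block gave 41 loci with rFGF1WT and 39 with rFGF1ΔHBS. Fits of only the 4 libraries compared gave 170 and 189 by that rule. The counts over all loci that follow keep both limits. A filter at 5 FPKM gave 69 with rFGF1WT and 18 between both forms, a pseudocount of 0.1 gave 151 with rFGF1ΔHBS, and only loci above 0 in all libraries gave 13 between both forms. Leaving out 1 library gave 101 to 155 with rFGF1WT, 104 to 133 with rFGF1ΔHBS and 43 to 103 between both forms. Over all tested loci, same-numbered libraries did not deviate together (r of -0.02 between HG and rFGF1WT, 0.10 between HG and rFGF1ΔHBS, -0.05 between both forms). These r cannot show whether single genes share an effect of the replicate number. For *Cxcl1*, replicate 2 had 1.87 to 2.01 times the FPKM of replicate 1 in every group. With the block none of the 10 genes had an adjusted p under 0.05 against HG, the lowest being 0.0698 and 0.0713 for *Cxcl1*. No value arose from summing loci of 1 symbol, because each gene had 1 locus, and a filter at 5 FPKM left out 4 of the 10 genes.

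The calls of single genes were near the threshold. Against HG, leaving out 1 library, the block and the fits of 4 libraries also called fewer of all loci by adjusted p alone. A call lost in such a fit is therefore not particular to the genes described. Over the 9 settings other than leaving out a library, *Cxcl12* was called in 7 in both comparisons, *Cxcl10* in 7 with rFGF1ΔHBS, *Ccl2* in 7 and 6, and *Ccl7* in 4 with rFGF1ΔHBS. The direction of *Ccl2*, *Ccl7*, *Cxcl10*, *Cxcl12*, *Ackr3*, *Ccl5*, *Cxcl16* and *Cxcl1* against HG stayed the same in all alternatives. For *Cxcl1* the size nevertheless ran from 0.079 to 1.05 (rFGF1WT) and from 0.11 to 1.08 (rFGF1ΔHBS) on leaving out 1 library. For *Cx3cl1* the direction turned when 1 library was left out, with log2 fold changes of -0.98 to 1.87 (rFGF1WT) and -2.44 to 0.20 (rFGF1ΔHBS), and for *Cxcl5* with rFGF1ΔHBS it ran from -0.073 to 0.14. Between both forms, the sign turned on leaving out 1 library for *Ccl2* (-0.17 to 0.19), *Ccl5* (-0.19 to 0.039), *Cxcl1* (-0.43 to 0.49), *Cxcl5* (-0.18 to 0.033), *Cxcl12* (-0.025 to 0.018), *Cxcl16* (-0.17 to 0.078) and *Ackr3* (-0.0055 to 0.12), and for *Ccl2* under median-ratio scaling (-0.00049). Causes of these shifts were not tested. No value here has more than 2 libraries per group behind it, and FPKM hold no read totals, so counting error is known only as far as the steps in low values allow.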
